A study of Mus musculus with 24 samples.

Results

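The enzymes and partners that hydroxylate procollagen in the endoplasmic reticulum were followed through 10 genes in bone-forming mouse osteoblasts grown in culture. They are the prolyl 4-hydroxylase subunits P4ha1, P4ha2, P4ha3 and P4hb, the lysyl hydroxylases Plod1, Plod2 and Plod3, and the prolyl 3-hydroxylation complex P3h1, Crtap and Ppib. The genes were taken by symbol from a table of 54232 genes, and all 10 were among the 16592 genes that passed the filter on low counts. Bulk RNA-seq of polyadenylated RNA covered 24 libraries in 8 groups of 3: wild-type (WT) and high bone mass (HBM) cultures at days 0, 10, 15 and 21 of osteoblast differentiation. Each culture came from pooled newborn calvariae (skull bones), with 3 independent pools per genotype according to the labels. The main tests of single days and of time take the spread from all 24 libraries. Days of 1 culture thus count as separate libraries in their p-values, which do not measure the spread between pools alone. Counts summed over the 4 days give 1 value per culture. The labels name the HBM genotype without its allele and do not describe the genetic background or the medium. Cultures carry the batch numbers 18, 19 and 21, each present once per genotype and day, and libraries of 1 genotype that share a number were taken to be time points of a single culture, which the labels do not state outright.

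Newly made collagen chains are hydroxylated on proline and lysine before they fold. Prolyl 4-hydroxylase, a complex of α-subunits with the β-subunit protein disulphide isomerase, makes the 4-hydroxyproline that keeps the triple helix stable at body temperature. Lysyl hydroxylases prepare lysines for sugar attachment and for the cross-links between molecules in bone, and the complex of P3h1, Crtap and the cyclophilin Ppib modifies single prolines and assists folding. The hydroxylases use molecular oxygen, iron, 2-oxoglutarate and ascorbate, and loss of several of these genes causes brittle bone disease.

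Libraries held 28039095 to 46987734 counts. The 9 osteoblast markers examined (Runx2, Sp7, Alpl, Bglap, Ibsp, Spp1, Dmp1, Phex and Dlx5) all passed the filter, with a summed level of 451 to 4859 CPM in WT and 721 to 7481 CPM in HBM. CPM is a count relative to library size, here after trimmed-mean (TMM) scaling. At day 0 the osteoblast sum was 2614 to 3724 CPM in WT and 2879 to 3952 CPM in HBM. At day 10 it was 451 to 2654 and 721 to 6142 CPM, so the sum was not lowest before differentiation. Gene by gene, 8 of the 9 markers were higher at day 10 than at day 0 in each genotype in the main model. Their median log2 change was 3.77 in WT and 6.14 in HBM. Spp1 went the other way in WT (log2 -2.07 ± 0.59 SE), so the sum does not show the course of most markers. Other cell types were also present. Of the macrophage and osteoclast markers, 9 of 9 were tested, with sums of 184 to 1233 CPM at day 0 and 1983 to 10354 CPM later. The 7 adipocyte markers summed to 20 to 49.8 CPM at day 0 and 234 to 772 CPM later. The 11 cartilage markers summed to 881 to 16746 CPM at day 0, highest in the WT culture of batch 19, and to 883 to 5027 CPM later. Col2a1 alone was at 15857 CPM in that culture at day 0. Of the 11 markers, 8 were higher at day 10 than at day 0 in each genotype in the main model (median log2 0.76 in WT and 1.39 in HBM). The female-specific Xist was at 0 to 0.0328 CPM in batch 21, at 279 to 528 CPM in batch 18, and in batch 19 at 18 to 41.7 CPM in WT against 177 to 246 CPM in HBM. The part of these differences in the results was not tested, and in bulk RNA a change in the share of a cell type cannot be told apart from a change in RNA per cell.

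Levels of different genes were compared per kilobase of exon. P4hb, which also serves other disulphide-bonded proteins, was the most abundant, with a median of 483 CPM per kilobase over the 24 libraries. Crtap followed at 216 and Ppib at 149. Then came P4ha3 at 97.9, P4ha1 at 77.5, P3h1 at 61.2 and Plod3 at 59.4, with Plod2 at 21.2, Plod1 at 20.2 and P4ha2 at 15.8 lowest. The top of this order held in nearly every library: P4hb exceeded Crtap in 24 of 24, Crtap exceeded Ppib in 23 and Ppib exceeded P4ha3 in 23. P4ha1 and P3h1 (13 of 24), P3h1 and Plod3 (12 of 24) and Plod2 and Plod1 (11 of 24) traded places. For Plod3 and P3h1 the order changed with day. Their day 0 means were 105 and 57.7 CPM per kilobase in WT and 89.1 and 54.7 in HBM. At day 21 they were 47.6 and 54.3 in WT and 52.5 and 75.5 in HBM. The α-subunits P4ha1 and P4ha2 were the most variable, with a 7.55-fold and a 4.76-fold range over the 24 libraries, and P4ha3 the least, with a 2.12-fold range.

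**Figure D1:**
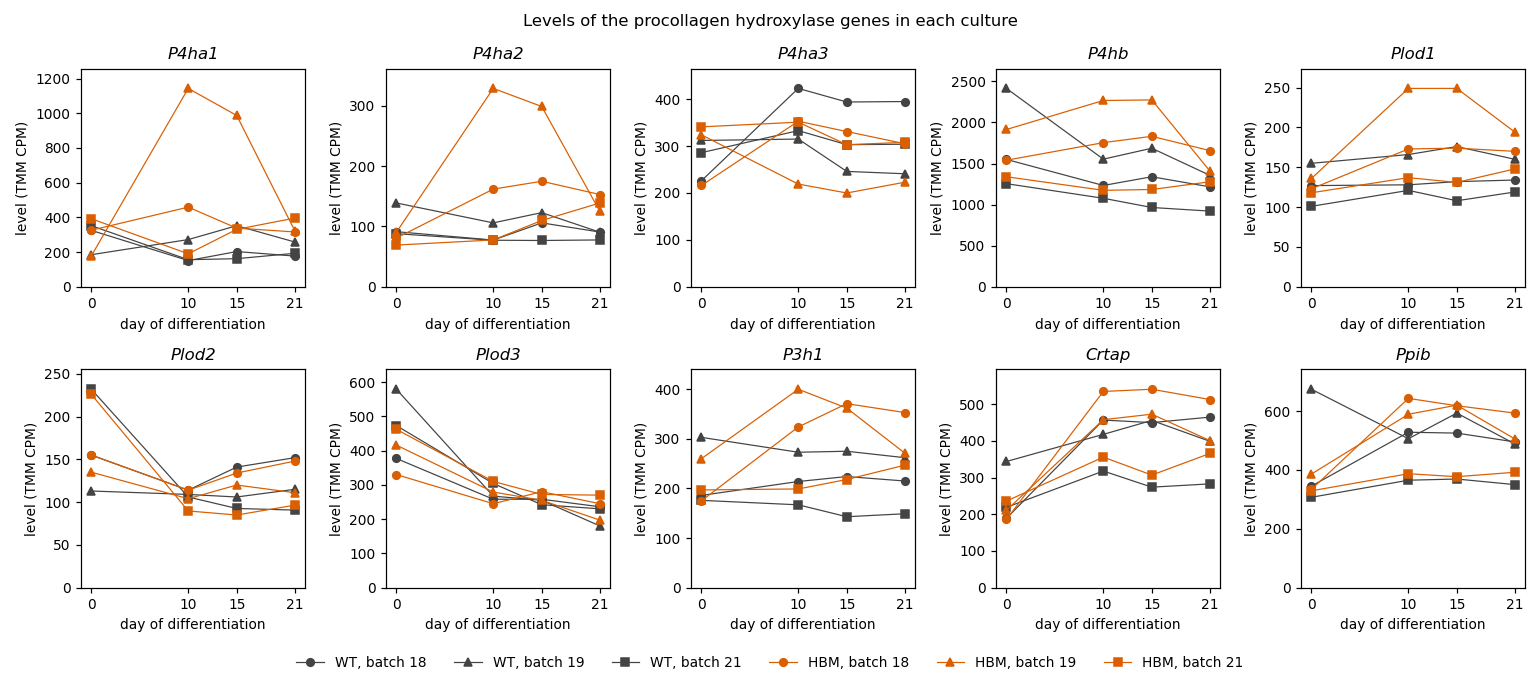
Level of each gene (TMM CPM, linear axis from 0) against day of differentiation, with 1 line per culture (gray WT, orange HBM, symbols for batches). P4ha1 reached 1143 CPM in the HBM culture of batch 19 at day 10, whereas Plod3 was lower at day 10 than at day 0 in all 6 cultures.

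The α-subunits carry the catalytic site of prolyl 4-hydroxylase, and P4ha1 and P4ha2 are known targets of the hypoxia-inducible factors. The windows of 250 bases before their RefSeq start sites (build GRCm38.p6) are shown beside that of P4ha3 because P4ha1 and P4ha2 correlated over the libraries (Pearson's r 0.79) and P4ha1 and P4ha3 inversely (-0.63). P4ha1 lies at chr10:59323296-59373304, P4ha2 at chr11:54100095-54131665 and P4ha3 at chr7:100285520-100319699, all on the plus strand. In the lines that follow, capitals mark ACGTG or GCGTG, the core letters of the hypoxia response element, on either strand (CACGT and CACGC are the same letters on the other strand). The windows are chr10:59323046-59323295, chr11:54100674-54100923 and chr7:100285270-100285519, and the P4ha2 window begins inside the longer gene annotated by GENCODE.
P4ha1: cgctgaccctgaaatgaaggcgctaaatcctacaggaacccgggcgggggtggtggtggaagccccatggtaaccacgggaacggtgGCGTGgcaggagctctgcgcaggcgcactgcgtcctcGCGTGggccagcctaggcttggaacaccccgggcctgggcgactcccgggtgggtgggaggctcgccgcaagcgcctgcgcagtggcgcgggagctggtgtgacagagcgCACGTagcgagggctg
P4ha2: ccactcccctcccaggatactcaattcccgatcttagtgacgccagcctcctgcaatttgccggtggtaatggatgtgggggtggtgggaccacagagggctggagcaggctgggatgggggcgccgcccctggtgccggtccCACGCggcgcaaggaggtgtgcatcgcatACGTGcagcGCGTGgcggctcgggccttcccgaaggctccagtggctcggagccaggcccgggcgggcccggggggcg
P4ha3: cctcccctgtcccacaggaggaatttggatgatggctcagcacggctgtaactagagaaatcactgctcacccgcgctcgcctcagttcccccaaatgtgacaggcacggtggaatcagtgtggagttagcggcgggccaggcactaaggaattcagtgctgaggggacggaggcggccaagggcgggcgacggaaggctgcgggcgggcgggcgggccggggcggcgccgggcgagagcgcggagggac
P4ha1 and P4ha2 each held 1 ACGTG and 2 GCGTG, and P4ha3 held none. This is a description of letters only. Of 32851 RefSeq promoter windows of the same length 38.6% held either core, and of the 4302 with 65 to 75% GC, as in these windows (69.6, 70.0 and 67.2%), 67.4% did. Windows were found for 9 of the 10 genes, and each of the other 6 also held at least 1 core. The endoplasmic reticulum stress element, CCAAT and CCACG separated by 9 bases, present in 0.113% of all windows, was in none of the 9.

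P4ha1 followed different courses in different cultures. In WT it was at 325, 185 and 352 CPM at day 0 in batches 18, 19 and 21, and at 151, 272 and 156 CPM at day 10. In HBM the day 0 levels were 326, 178 and 392 CPM, and those of day 10 were 459, 1143 and 190 CPM. The WT cultures of batches 18 and 21 were thus lower at day 10 and that of batch 19 higher, whereas in HBM batches 18 and 19 were higher and batch 21 lower. At day 15 the WT values were 203, 352 and 162 CPM and the HBM values 338, 987 and 331 CPM. At day 21 they were 177, 258 and 193 CPM in WT and 316, 322 and 396 CPM in HBM, the only day on which the genotypes did not overlap. From day 0 to day 10 neither genotype passed the test (log2 -0.57 ± 0.52 SE, adjusted p = 0.441 in WT and 1.0 ± 0.53, adjusted p = 0.172 in HBM, edgeR quasi-likelihood test with Benjamini-Hochberg adjustment over all genes). Without batch 19 in both genotypes the HBM estimate turned to -0.14, and the WT estimate became -1.13 with an edgeR adjusted p of 0.0396.

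P4ha2 encodes the α-subunit that is prominent in skeletal cells. Its WT levels in batches 18, 19 and 21 were 91.4, 139 and 88.1 CPM at day 0 and 77.5, 106 and 77.2 CPM at day 10, lower in each culture. Its HBM levels were 80.8, 90.4 and 69.2 CPM at day 0 and 162, 329 and 77.7 CPM at day 10, higher in each culture. The HBM cultures then stood at 175, 299 and 110 CPM at day 15 and 153, 125 and 139 CPM at day 21, against 106, 123 and 76.8 CPM and 90.8, 90.5 and 77.7 CPM in WT. P4ha2 rose 2.37-fold in HBM from day 0 to day 10 (log2 1.24 ± 0.39, edgeR adjusted p = 0.0238), while WT gave log2 -0.29 ± 0.38 (adjusted p = 0.604). The HBM call was lost without the HBM day 10 library of batch 19 (log2 0.60, edgeR adjusted p = 0.232) and without the HBM day 0 library of batch 18 (0.0639) or 21 (0.0677). Without batch 19 in both genotypes it was log2 0.69 with an adjusted p of 0.153.

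P4ha3 encodes the remaining α-subunit. Its WT levels were 226, 312 and 286 CPM at day 0 and 423, 315 and 333 CPM at day 10 in batches 18, 19 and 21, and the days did not overlap. Its HBM levels were 216, 324 and 341 CPM at day 0 and 353, 219 and 351 CPM at day 10. Neither change passed the edgeR test (log2 0.38 ± 0.25, adjusted p = 0.286 in WT and 0.07 ± 0.25, adjusted p = 0.871 in HBM). P4ha3 made up 50.3% ± 8.4 (SD, n = 3) of the summed α-subunit level per exon length in WT at day 0 and 65.3% ± 9.5 at day 10. In HBM at day 10 its share ran from 17.4% in batch 19 to 65.6% in batch 21, and that of P4ha1 from 27.1% in batch 21 to 69.4% in batch 19. P4ha2 stayed between 5.2% and 13.6% in every library.

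**Figure D2:**
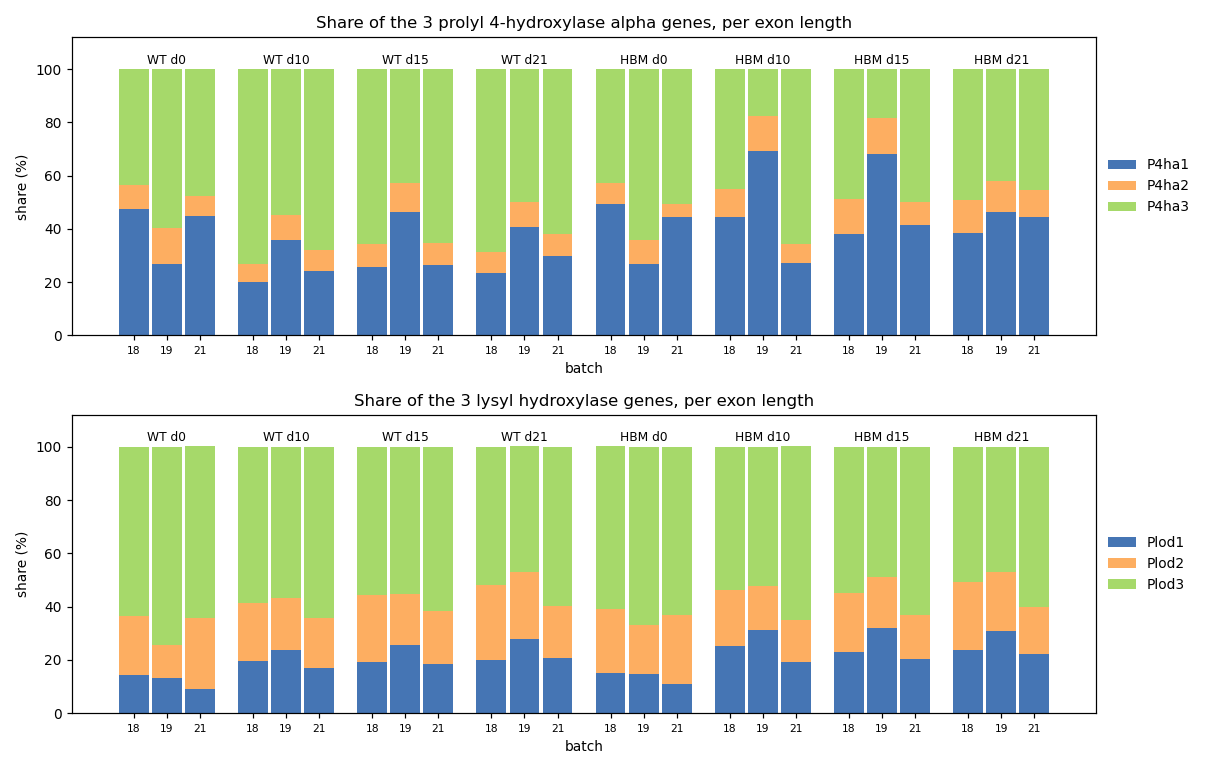
Share (%) of each of the 3 α-subunit genes (upper panel) and of the 3 lysyl hydroxylase genes (lower panel) in their summed level per exon length, 1 bar per library. P4ha1 took 69.4% and 68.2% of the α-subunit sum in the HBM libraries of batch 19 at days 10 and 15, and Plod3 had the largest mean share of the lysyl hydroxylases in every group.

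P4hb, the β-subunit (chr11:120560298-120573253, minus strand), had a narrower range. In batches 18, 19 and 21 its WT levels were 1550, 2414 and 1255 CPM at day 0 and 1233, 1553 and 1077 CPM at day 10, lower in each culture. Its HBM levels were 1540, 1914 and 1339 CPM at day 0 and 1754, 2267 and 1174 CPM at day 10, lower in batch 21 only. The model without a block gave log2 -0.43 ± 0.29 in WT (edgeR adjusted p = 0.289) and 0.12 ± 0.29 in HBM (0.799). With the culture as a block P4hb fell in WT (log2 -0.40 ± 0.15, edgeR adjusted p = 0.0477), a call that was lost without batch 18, 19 or 21 (0.209, 0.163 and 0.0608). Per exon length P4hb was 1.98 to 5.06 times the sum of the α-subunits over the 24 libraries.

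Plod1, which acts on lysines of the triple helix (chr4:147909753-147936767, minus strand), was at 127, 155 and 101 CPM at day 0 and 128, 166 and 121 CPM at day 10 in WT. In HBM it was at 123, 136 and 118 CPM at day 0 and 173, 249 and 137 CPM at day 10, with no overlap. The HBM change missed the threshold without a block (log2 0.57 ± 0.25, edgeR adjusted p = 0.0935). It passed with the culture as a block, where Plod1 rose 1.44-fold (log2 0.52 ± 0.12, edgeR adjusted p = 0.00246), and was lost there without batch 18 (0.0745).

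Plod2 hydroxylates the lysines of the telopeptides from which the stable bone cross-links form (chr9:92542223-92608428, plus strand). Its WT levels were 155, 113 and 232 CPM at day 0 and 114, 109 and 106 CPM at day 10. Its HBM levels were 155, 135 and 226 CPM at day 0 and 114, 104 and 89.7 CPM at day 10, so that the days did not overlap in HBM. Plod2 fell to 0.597-fold in HBM (log2 -0.74 ± 0.26, edgeR adjusted p = 0.0435), and the WT difference was log2 -0.60 ± 0.26 (adjusted p = 0.0957). Leaving out either the HBM day 0 library of batch 18 or 21 or any HBM day 10 library ended the HBM call (edgeR adjusted p 0.0621 to 0.191). Plod2 shares 346 exon bases with the gene model Gm38391, which had 1364 counts against 113980.

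Plod3, a lysyl hydroxylase that also attaches glucose to galactosyl-hydroxylysine (chr5:136987019-136996648, plus strand), was lower at day 10 in every culture. In WT its day 0 levels of 377, 579 and 473 CPM compared with 258, 267 and 304 CPM at day 10. The HBM cultures stood at 330, 416 and 462 CPM and then 245, 279 and 310 CPM. The days did not overlap in either genotype. Plod3 fell in WT (log2 -0.79 ± 0.16, edgeR adjusted p = 0.00201) and in HBM (log2 -0.53 ± 0.16, adjusted p = 0.0212). The WT call held without any single library but not without batch 19 in both genotypes (log2 -0.59, edgeR adjusted p = 0.0532), and the HBM call was lost without HBM day 0 batch 19 or 21 or HBM day 10 batch 18 or 19 (0.0585 to 0.088). Plod3 shares 529 exon bases with Znhit1 on the opposite strand, and the strand setting of the counting is not given in the sources used here. Znhit1 had 25014 counts against 271470 for Plod3 over all libraries. By day 21 Plod3 was at 236, 180 and 230 CPM in WT and 245, 197 and 270 CPM in HBM, and its share of the summed lysyl hydroxylase level per exon length was 67.5% ± 6.0 in WT at day 0 and 52.9% ± 6.3 at day 21 (SD, n = 3).

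P3h1, the catalytic subunit of the 3-hydroxylation complex (chr4:119232915-119248975, plus strand), was at 186, 303 and 176 CPM at day 0 and 214, 273 and 167 CPM at day 10 in WT. In HBM it was at 175, 260 and 197 CPM and then at 324, 400 and 199 CPM, higher in each culture. The HBM change passed with the culture as a block (log2 0.50 ± 0.17, edgeR adjusted p = 0.0339) and not without it (0.55 ± 0.31, adjusted p = 0.206). The blocked call was lost without batch 18 or 19 (edgeR adjusted p = 0.261 and 0.117).

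Crtap, the scaffold of that complex (chr9:114375134-114390675, minus strand), was at 189, 344 and 219 CPM at day 0 and 457, 418 and 318 CPM at day 10 in WT. The HBM cultures stood at 186, 211 and 236 CPM and then at 535, 458 and 356 CPM. It was higher in all 6 cultures, without overlap in HBM. Crtap rose 2.13-fold in HBM (log2 1.09 ± 0.27, edgeR adjusted p = 0.00668), a call that held without any single library but not without batch 19 in both genotypes (log2 1.09, adjusted p = 0.0689). In WT the change was log2 0.67 ± 0.27 (edgeR adjusted p = 0.074). It passed with the culture as a block (log2 0.66 ± 0.21, edgeR adjusted p = 0.0204, but 0.157 without batch 18), in DESeq2 (adjusted p = 0.0486) and without the WT day 0 library of batch 19 (log2 0.96, edgeR adjusted p = 0.0202). That library had the highest cartilage marker sum.

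Ppib, the cyclophilin of the complex (chr9:66060222-66066623, plus strand), was at 345, 674 and 307 CPM at day 0 and 528, 506 and 365 CPM at day 10 in WT, lower in batch 19 only. The HBM cultures stood at 334, 386 and 329 CPM and then at 643, 589 and 387 CPM, without overlap. It rose in HBM with the culture as a block (log2 0.58 ± 0.17, edgeR adjusted p = 0.0141) and missed the threshold without it (0.63 ± 0.29, adjusted p = 0.117). The blocked call was lost without batch 18 (edgeR adjusted p = 0.179). Ppib shares 825 exon bases with Snx22, which had 445 counts against 429008. Per exon length Crtap was 2.46 ± 0.25 times P3h1 in WT at day 0 and 4.03 ± 0.66 times at day 10 (SD, n = 3). In HBM it was 2.22 ± 0.43 times at day 0, 3.32 ± 0.73 at day 10, 3.02 ± 0.16 at day 15 and 3.19 ± 0.03 at day 21, against 4.04 ± 0.39 and 4.04 ± 0.69 in WT on days 15 and 21.

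Counted together, 1 of the 10 genes (Plod3, lower) passed from day 0 to day 10 in WT, where 26.2% of all genes tested were called by the same edgeR test. In HBM 4 passed, with P4ha2 and Crtap higher and Plod2 and Plod3 lower, against 26.5% of all genes (14.1% higher and 12.4% lower, and in WT 12.2% higher and 14.1% lower). The median log2 change over the 10 genes was -0.16 in WT and 0.56 in HBM, beside -0.02 and 0.00 over all genes. With the culture as a block 3 passed in WT (Plod3, Crtap and P4hb, with 38.5% of all genes called, 19.7% higher and 18.8% lower) and 7 in HBM (P4ha2, Plod1, P3h1, Crtap and Ppib higher, Plod2 and Plod3 lower, with 38.2% of all genes called, 20.5% higher and 17.7% lower). DESeq2 called 2 of the 10 in WT (Plod3 and Crtap, 28.3% of all genes) and the same 4 as edgeR without a block in HBM (27.4%). Without batch 19 in both genotypes 0 of the 10 passed in HBM, against 15.9% of all genes. Fitted on the 6 libraries of a comparison alone, 0 passed in WT (3.1% of all genes) and 1 in HBM (Crtap, edgeR adjusted p = 0.0228, with 13.9% of all genes). Days 10 and 0 did not overlap for 2 of the 10 genes in WT (33.6% of all genes) and for 5 in HBM (38.5%). Counts of 1 to 5 among 10 genes stand near these shares, the 7 of the blocked model stands above its own, and no test of these differences was run.

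**Figure D3:**
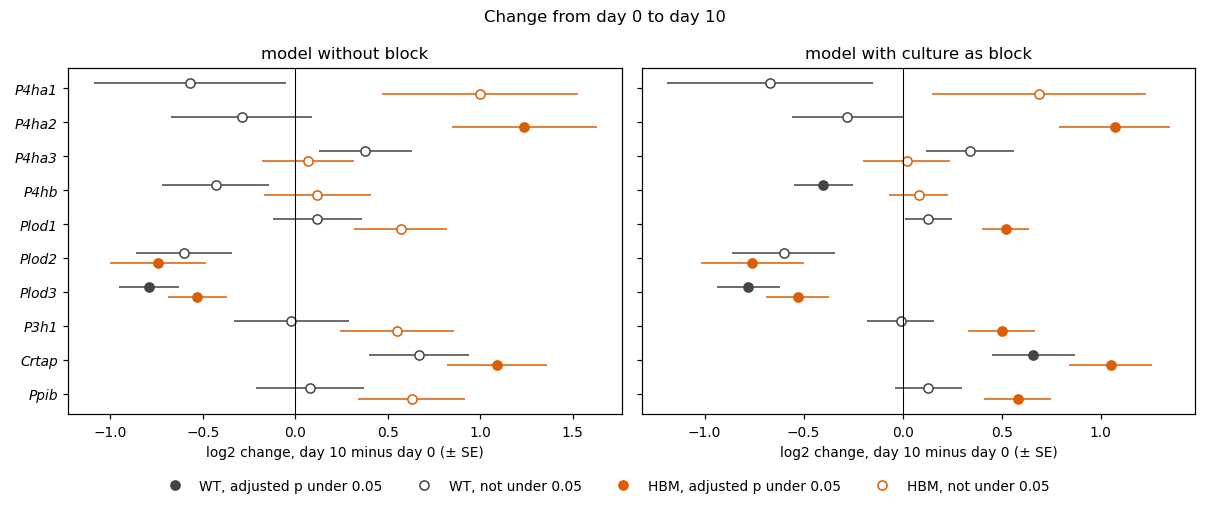
Log2 change from day 0 to day 10 (± SE) of each gene in WT (gray) and HBM (orange), from the model without a block (left) and with the culture as a block (right), with filled circles for an adjusted p under 0.05. Filled circles number 1 for WT and 4 for HBM on the left, and 3 and 7 on the right.

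Between days 10 and 21 no further difference passed. None of the 10 passed in either genotype (edgeR adjusted p 0.999 in WT and 1 in HBM, with 0 of all genes called). At an unadjusted p under 0.05 1 gene stood in WT (Plod3, log2 -0.36 ± 0.16) and 0 in HBM, beside 707 and 535 of all 16592 genes. DESeq2 (0.0943% and 0.00962% of all genes in WT and HBM) and the block (0.554% and 0.0964%) also called 0 of the 10. The largest HBM differences were those of P4ha1 (log2 -0.79 ± 0.52) and P4ha2 (-0.45 ± 0.38). Within cultures they were uneven: from day 10 to day 21 P4ha1 moved 0.282-fold in HBM batch 19, 0.688-fold in batch 18 and 2.08-fold in batch 21.

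HBM was then compared with WT on each day, the comparison the labels set up. These tests share libraries with those of time, so the same HBM day 10 libraries enter both. At day 0 the fold of HBM over WT in the model was between 0.755 (P4ha2) and 1.07 (P4ha3), and 0 of the 10 genes were called. Crtap and Ppib were lower in HBM at day 0 in batch 19 (211 against 344 CPM and 386 against 674 CPM) and near equal in batches 18 and 21. On later days most of the genes were higher in HBM, in the order P4ha1, P4ha2, P3h1, P4hb and Plod1 at day 10. P4ha1 was 3.09-fold higher at day 10 (log2 1.63 ± 0.54), 2.31-fold at day 15 (1.21 ± 0.53) and 1.65-fold at day 21 (0.72 ± 0.52), each with an edgeR adjusted p of 1. Without the HBM library of batch 19 the P4ha1 difference was log2 0.76 at day 10, 0.49 at day 15 and 0.77 at day 21. P4ha2 was 2.18-fold, 1.91-fold and 1.61-fold higher on these days, again with adjusted p of 1, and log2 0.48, 0.49 and 0.77 without that library. For P3h1 the day 15 levels in batches 18, 19 and 21 were 224, 275 and 143 CPM in WT and 371, 362 and 218 CPM in HBM, and at day 21 215, 262 and 149 CPM and 353, 271 and 247 CPM. P4hb stood at 1339, 1686 and 965 CPM in WT and 1831, 2274 and 1184 CPM in HBM at day 15. Plod1 stood at 132, 176 and 108 CPM and 174, 249 and 131 CPM. The HBM culture was the higher of each of these pairs, while the groups overlapped.

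The edgeR model without a block called 0 of the 10 genes and 0 genes in all on each day, with 701, 476, 347 and 356 genes in all at an unadjusted p under 0.05 at days 0, 10, 15 and 21. At that level it counted 0, 2, 2 and 0 of the 10, both times P4ha1 and P4ha2, and DESeq2 called 0 on each day with the same 4 counts. On counts summed over the 4 days, 0 of the 10 passed, with P4ha1 at log2 0.93 ± 0.28 and P4ha2 at 0.68 ± 0.27 (edgeR adjusted p 1 for both, unadjusted p under 0.05 for both). Of all 18387 genes tested on the summed counts, 555 stood at that unadjusted level. DESeq2 also called 0 of the 10 there, with 0.132% of all genes. The median over the 10 genes was log2 -0.10 at day 0, 0.32 at day 10, 0.29 at day 15 and 0.23 at day 21, beside -0.04, 0.00, -0.01 and -0.01 over all genes.

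With a batch term for each day as a block, 1 of the 10 was called. P4ha1 was higher in HBM than in WT at day 10 by log2 1.33 ± 0.27 (2.51-fold, edgeR adjusted p = 0.0391), where 1.31% of all genes passed. Without batch 18, 19 or 21 the blocked estimate was log2 1.18, 0.95 and 1.84, with edgeR adjusted p of 0.322, 0.256 and 0.0513. With 1 batch term for all days it was log2 1.53 with an adjusted p of 0.399, and 0 genes were called on any of the 4 days. On counts summed over the days the blocked model gave log2 0.87 with an edgeR adjusted p of 0.0814, and it called 0 genes. At the other days the blocked test called 0 of the 10, with 0.127% of all genes called at day 0, 0.331% at day 15 and 0.241% at day 21. Of the differences not called on single days, Plod1 at day 10 (log2 0.40 ± 0.09, edgeR adjusted p = 0.0618) was nearest to the threshold. P3h1 (0.58 ± 0.13, 0.0782), Plod1 (0.39 ± 0.09, 0.0865) and P4ha1 (1.09 ± 0.26, 0.0919) at day 15 followed. P4ha2 at day 10 (0.91 ± 0.24, 0.0926) came next.

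The direction was also read within batches. In the 9 pairs of HBM and WT cultures of the same batch on days 10, 15 and 21, HBM was higher in 9 of 9 for 7 of the 10 genes: P4ha1, P4ha2, P4hb, Plod1, P3h1, Crtap and Ppib. Of all genes tested, 6.16% were higher and 6.73% lower in all 9. The pairs come from only 3 batches, so the 9 are not independent. P4ha1 was 1.22-fold to 4.2-fold higher (median 2.04), P4ha2 1.01-fold to 3.11-fold (1.68), P3h1 1.04-fold to 1.66-fold (1.52), P4hb 1.04-fold to 1.46-fold (1.36) and Plod1 1.14-fold to 1.5-fold (1.27). Crtap (1-fold to 1.29-fold) and Ppib (1.02-fold to 1.22-fold) differed less, with a median of 1.12-fold each. In batch 19 at day 21 Crtap was nearly equal, at 401 CPM in HBM and 399 CPM in WT. Plod3 was higher in 7 of 9 pairs, Plod2 in 3 and P4ha3 in 2.

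**Figure D4:**
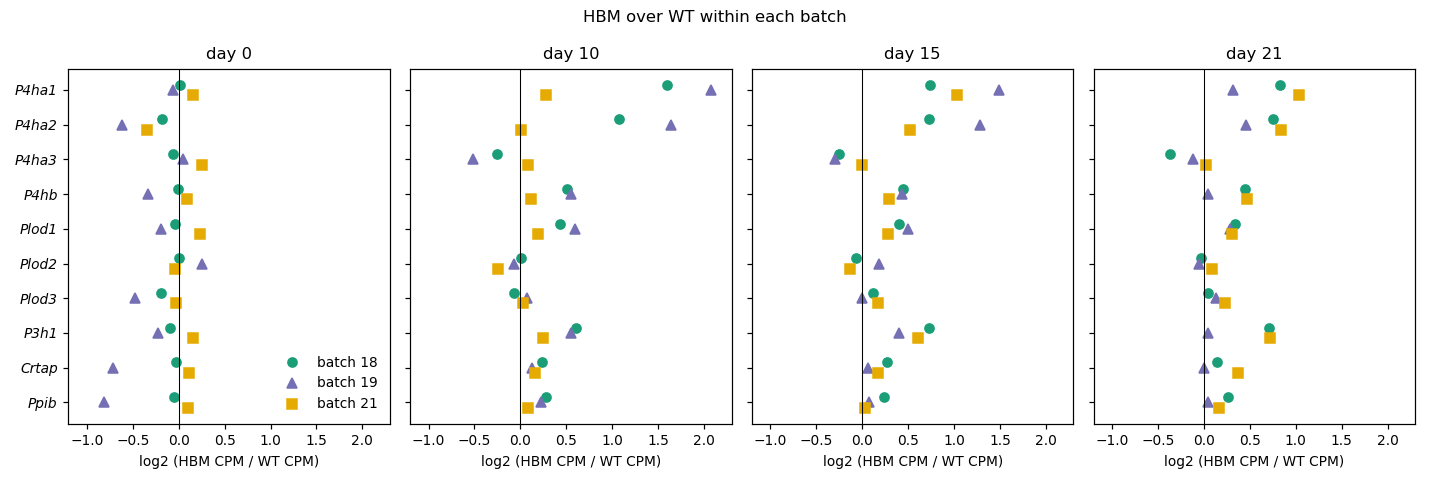
Log2 of HBM CPM over WT CPM for each gene within each batch (symbols), by day, with the line at 0 marking equal levels. P4ha1 lies furthest to the right in each batch on days 10 and 15, up to 2.07 in batch 19 at day 10. P4ha2 at day 10 lies at 1.64 in batch 19 and at 0.01 in batch 21. Plod2 and Plod3 lie around 0 on the later days.

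This count depends on the scaling. With library totals in place of TMM, 2 of the 10 genes (P4ha1 and Plod1) were higher in all 9 pairs, against 1.87% of all genes, and P4ha2, P4hb and P3h1 were higher in 8. Crtap and Ppib were then higher in 6, Plod3 in 5, P4ha3 in 1 and Plod2 in 0. That scaling shifts the median of all genes in HBM minus WT by -0.13 (log2) at day 15 and -0.10 at day 21, and turns the sign of the Plod3 difference at days 10 and 15 and of the Ppib difference at day 15. The collagen I chains took up to 18% of all counts in HBM and up to 10.9% in WT. With median-ratio size factors 6 of the 10 were higher in all 9, against 6.47% of all genes, and Crtap was higher in 8. At day 0 HBM was higher in 0 to 2 of the 3 pairs for every gene.

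The genotype difference did not pass a test of change with day for any of the 10 genes (3 degrees of freedom, edgeR adjusted p of 1 for each, 0 genes called in all). At an unadjusted p under 0.05, 1 of the 10 stood, P4ha2, in edgeR with and without the block and in DESeq2, which also called 0. At that level stood 298 and 103 of all 16592 genes in edgeR with and without the block, and 174 genes in DESeq2. Macrophage and osteoclast markers were not above or below in all 9 later pairs for any of 9 genes, and adipocyte markers for none of 7. Cartilage markers were below in HBM for 4 of 11 (Col9a1, Col9a2, Comp and Cnmd). Osteoblast markers were above in HBM in all 9 pairs for 5 of 9 (Sp7, Alpl, Bglap, Ibsp and Dlx5). With TMM scaling, used for these counts, 6.16% of all genes tested were above and 6.73% below. The part of these markers in the differences of the hydroxylase genes was not tested.

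Collagen I is the main substrate of these enzymes in bone. Col1a1, which encodes its α1 chain, was at 24407 ± 7706 CPM in WT at day 0 and 41135 ± 10528 at day 10, and at 27000 ± 6727 and 68052 ± 23640 CPM in HBM (SD, n = 3). It rose in HBM (log2 1.33 ± 0.44, edgeR adjusted p = 0.0327), as did Col1a2 (1.48 ± 0.48, adjusted p = 0.0297), while WT gave 0.75 ± 0.44 (0.213) and 1.07 ± 0.47 (0.104). With the culture as a block both chains also rose in WT (Col1a1 log2 0.76 ± 0.25, edgeR adjusted p = 0.0291, and Col1a2 1.02 ± 0.26, 0.00665), and DESeq2 called Col1a2 there (adjusted p = 0.0485). Between the genotypes the blocked test called both chains at day 15 (Col1a1 log2 0.96 ± 0.16, edgeR adjusted p = 0.0298; Col1a2 0.86 ± 0.15, 0.0418), and without the block neither was called (adjusted p of 1). Neither was called by the block with 1 batch term for all days, which called 0 genes, or by the blocked model of summed counts (edgeR adjusted p = 0.0948 and 0.0988). Together the 10 genes had 103 ± 11.2 counts per 1000 Col1a1 and Col1a2 counts in WT at day 0 and 49.1 ± 9.08 at day 10. In HBM they had 82.9 ± 11.1 at day 0, 39.9 ± 4.71 at day 10 and 29 ± 6.92 at day 21, against 40.3 ± 10.7 in WT on the last day. This ratio was not tested; its values are given as a description.

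Relative to collagen I most of the genes were lower in HBM. For 8 of the 10 the ratio was lower in HBM in 9 of the 9 same-batch pairs of the later days, the reverse of their level for P4hb, Plod1, P3h1, Crtap and Ppib. The same held for 77.2% of all genes tested, so 8 of 10 stands near the share of all genes, and with collagen I higher in HBM a gene at an equal level has a lower ratio. P4ha1 (lower in 4 of 9) and P4ha2 (lower in 5 of 9) were the exceptions. From day 0 to day 10 the ratio was lower in 3 of 3 WT cultures for 9 genes (65.1% of all genes) and in 2 of 3 for Crtap. In HBM it was lower in 3 of 3 for 8 genes (75.5% of all genes) and in 2 of 3 for P4ha1 and P4ha2. In HBM batch 19, P4ha1 was at 6.99 per 1000 at day 10.

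**Figure D5:**
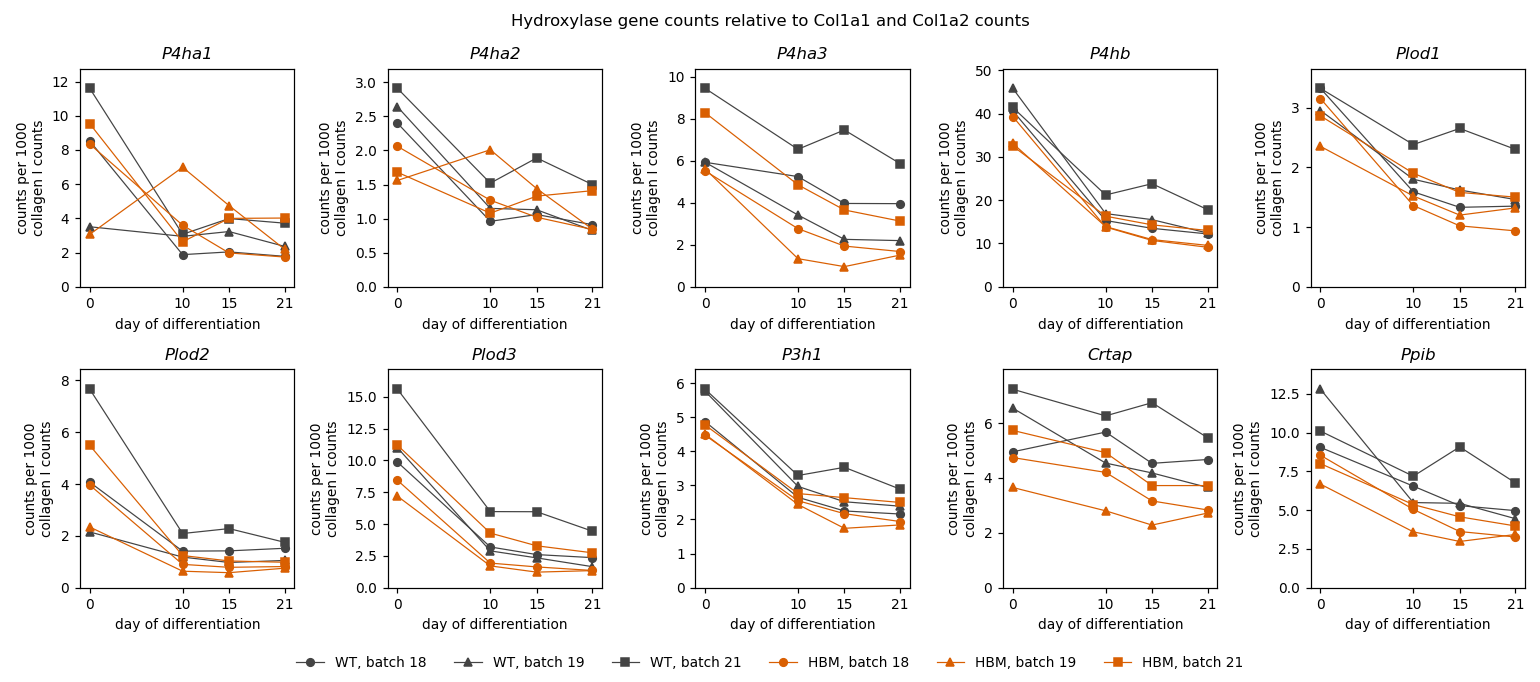
Counts of each gene per 1000 counts of Col1a1 and Col1a2 together, against day of differentiation, with 1 line per culture (gray WT, orange HBM, symbols for batches). The highest P4hb value was 45.8 in WT at day 0 and the lowest 9.12 in HBM at day 21, and P4ha1 in HBM batch 19 is the line that peaks at 6.99 on day 10.

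Patterns over the 24 libraries were compared next. Pearson's r of log2(CPM + 1) is a description here, since libraries share cultures, days and depth. P4ha2 had r of 0.89 with Plod1, 0.86 with P3h1, 0.79 with P4ha1, 0.75 with P4hb and 0.70 with Ppib, and Crtap and Ppib had 0.86. P4ha1 and P4ha3 had r of -0.63, and -0.65 over deviations from the group means. Plod3 and Crtap had -0.57, but 0.18 over those deviations, so their inverse relation lay between groups and not within them. Of all other genes tested, the nearest to P4ha1 were Slc16a3 (0.84), a lactate exporter, Higd1a (0.83) and the prolyl 3-hydroxylase P3h2 (0.83). Drd4 (0.91), at only 0.0332 to 3.38 CPM, and Higd1a (0.89), at 28.2 to 185 CPM, were nearest to P4ha2. P3h1 was nearest to Fkbp10 (0.96) and Serpinh1 (0.95), both collagen chaperones. Crtap was nearest to Rcn3 (0.98), P4hb to the translocon subunit Sec61a1 (0.97), Plod3 to Selenon (0.97) and Ppib to Ssr2 (0.96). The nearest to Plod1 was Rtkn2 (0.93), to Plod2 Pafah1b1 (0.88) and to P4ha3 Ctf1 (0.83). Rtkn2 (0.695 to 6.7 CPM) and Ctf1 (2.65 to 9.01 CPM) were also at low levels. In HBM batch 19, where P4ha1 was highest, Slc16a3 was at 3.43, 88.2, 107 and 31.9 CPM on days 0, 10, 15 and 21, and P4ha1 at 178, 1143, 987 and 322 CPM.

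The remaining genes of procollagen modification and folding were read from a list of 19, all of them tested. From day 0 to day 10 in WT 2 rose (the prolyl 3-hydroxylase family member P3h3, log2 0.78 ± 0.21, edgeR adjusted p = 0.0101, and the peptidyl-prolyl isomerase Fkbp7, 1.13 ± 0.34, 0.021, named after its value was seen) and 3 fell (the chaperones Canx, Hspa5 and Hsp90b1). In HBM 6 rose, among them Fkbp7 (1.85 ± 0.35, 0.00108), P3h3 (0.84 ± 0.21, 0.00625) and Fkbp9 (0.85 ± 0.24, 0.0131), and 2 fell, Canx (-0.76 ± 0.11, 0.000133) and Hsp90b1 (-0.35 ± 0.11, 0.0228). The shares of all genes were 12.2% higher and 14.1% lower in WT, and 14.1% and 12.4% in HBM. With the culture as a block 4 rose (Fkbp7, Colgalt2, P3h3 and Fkbp9) and 4 fell (Canx, Hspa5, Hsp90b1 and Pdia4) in WT, against 19.7% and 18.8% of all genes. In HBM 10 rose and the same 2 fell with the block, against 20.5% and 17.7%. The list's median was log2 0.02 in WT and 0.39 in HBM, beside -0.16 and 0.56 for the 10 hydroxylase genes. Between the genotypes 0 of 19 passed on any day without the block. With it 2 of 19 passed at day 10, both higher in HBM: the transcription factor gene Creb3l1 (log2 0.58 ± 0.10, edgeR adjusted p = 0.0173) and P3h2 (1.10 ± 0.23, 0.0442). Creb3l1 also passed at day 15 (0.77 ± 0.10, 0.0207) and at day 21 (0.71 ± 0.10, 0.0246). Of all genes that block called 1.31% at day 10, 0.331% at day 15 and 0.241% at day 21. The block with 1 batch term for all days called 0 genes. Of the 19, 5 were above WT in all 9 later pairs (P3h4, Colgalt1, Fkbp10, Serpinh1 and Creb3l1) and 1 below (Colgalt2), against 6.16% and 6.73% of all genes.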

How the data were processed

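The deposited table holds whole-number counts per gene for 24 libraries. The authors' reads were trimmed with cutadapt 3.4, aligned to mm10 with STAR 2.7.8a and counted with featureCounts (Subread 2.0.1), tools named in the submitters' processing notes; strand setting and annotation are not given there. GENCODE M21 supplied symbols, exon lengths and coordinates for 54164 of 54232 rows; the other 68 held at most 0.00337% of a library's counts. In the main tests of single days and of time, error was taken from the spread of all 24 libraries within their groups. Days of a culture counted as separate libraries there. In the blocked models error was the spread left after the block. The fits of summed counts without a block took error from the spread between cultures.

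In R 4.3.3, edgeR 4.0.16 was run on the counts with TMM scaling (factors 0.866 to 1.11), filtering by group (16592 genes, 18387 for summed counts), a quasi-likelihood model of the 8 groups without a block, and Benjamini-Hochberg adjustment with a threshold of 0.05. DESeq2 1.42.0, other scalings, no filter, leaving out libraries or batches and blocked models were the alternatives. The batch numbers pair the cultures: the labels give them as a batch, and deviations from the group means of same-numbered WT and HBM libraries correlated at 0.542 to 0.815 in 12 of 12 pairs, against at most 0.127 for other numbers. Blocked models used a batch term for each day (genotype) or the culture (time). The scripts were tested on simulated data.

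All 10 hydroxylase genes and Col1a1 and Col1a2 are named with values. Of each other list up to 4 genes with the smallest p per comparison, and up to 3 genes with the most similar pattern per hydroxylase gene, are named; most genes behind a count of 5 or fewer are named too, after their values were seen. Of the osteoblast marker list, 1 gene is not reported here and was left out of its sums and counts. The genes, the lists, the tests and the form of the block were chosen with earlier results of these data known. A fit with 1 batch term for all days, blocked fits without a batch, the test of the day 0 to day 10 change and the pair counts under other scalings were added after seeing the data.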

Additional observations from a re-analysis of the deposited data

Results flagged for a closer look

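From day 0 to day 10 P4ha2 was lower in all 3 WT cultures (0.847-fold, 0.763-fold and 0.876-fold in batches 18, 19 and 21) and higher in all 3 HBM cultures (2.01-fold, 3.64-fold and 1.12-fold). Opposite directions in every culture of the genotypes brought it here. Of all genes tested, 0.548% went opposite ways in all 6 cultures, and 0.253% went up in HBM and down in WT. The difference between the changes was log2 1.53 ± 0.54 with an edgeR adjusted p of 1, and 1.29 ± 0.33 with an adjusted p of 0.254 with the batch as a block, so it did not pass a test across all genes. In batch 19, where the gap was widest, the range of Xist was 18 to 41.7 CPM over the WT libraries against 177 to 246 CPM over the HBM libraries, and its part in the difference was not tested.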

How the results depend on the processing

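With the replicate block, the genes called between HBM and WT went from 0 to 21 at day 0, 217 at day 10 (with 1 of the 10 hydroxylase genes), 55 at day 15 and 40 at day 21, and from day 10 to day 21 from 0 to 92 in WT and 16 in HBM. From day 0 to day 10 the block called 3 of the 10 in WT and 7 in HBM. The block changed no other call of the 10. Blocked fits without 1 batch called 0 to 56, 5 to 43, 1 to 15 and 2 to 56 genes at days 0, 10, 15 and 21, and 29, 105 and 559 on summed counts. Of the 10 they called 0 at days 0, 10 and 15, 0 to 1 at day 21 and 0 to 2 on summed counts. From day 0 to day 10 they called 2429 to 5955 genes in WT with 1 to 3 of the 10, and 2662 to 5721 in HBM with 1 to 6. From day 10 to day 21 they called 1, 8 and 26 genes in WT and 0 to 1 in HBM. DESeq2 called 26 genes on summed counts, 18 and 3 from day 10 to day 21 in WT and HBM, and 2 of the 10 from day 0 to day 10 in WT, as did library totals. Library totals also left 2 of the 10 above WT in all 9 later pairs in place of 7. The 6 libraries alone gave 472 genes and 0 of the 10 in WT, and 2087 genes and 1 of the 10 in HBM, from day 0 to day 10. Without batch 19 these were 2236 genes in WT, and 2647 genes and 0 of the 10 in HBM, where P4ha1 turned to log2 -0.14 (-0.18 with the block). Leaving out 1 library gave 2866 to 5484 genes and 1 to 3 of the 10 in WT, and 2809 to 4415 genes and 1 to 5 of the 10 in HBM. The causes were not tested beyond the fewer samples in some fits. Depth was not varied in these fits.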

Other observations

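Among 20 genes of the hypoxia response, which includes glycolysis and angiogenesis genes, 8 fell and 1 rose from day 0 to day 10 in WT, and 5 fell and 1 rose in HBM, by edgeR's test without a block. Of all genes, 14.1% fell and 12.2% rose in WT, and 12.4% and 14.1% in HBM. With the culture as a block 12 fell in WT and 7 in HBM, against 18.8% and 17.7% of all genes, and 1 rose in each. Those that fell were led by the enolase gene Eno1 in WT (log2 -1.37 ± 0.33, edgeR adjusted p = 0.00599) and the phosphofructokinase gene Pfkp in HBM (-0.76 ± 0.19, 0.00658), where the others were Adm, Ero1l, Eno1 and Slc2a1. The 1 that rose was Ndrg1 in both (1.28 ± 0.35, 0.0116, and 1.15 ± 0.35, 0.0203). The summed level of the 20 genes was 3032 to 4239 CPM in WT at day 0 and 1616 to 1871 at day 10. In HBM the culture of batch 19 stood apart, with 3444 CPM at day 10 and 4180 CPM at day 15. The HBM cultures of batches 18 and 21 were at 1895 and 1808 CPM and then at 1695 and 1774 CPM, beside WT levels of 1662 to 2301 CPM at day 15. Between the genotypes 0 of 20 passed without the block. With it Ankrd37 (log2 2.79 ± 0.47, edgeR adjusted p = 0.019) and Bhlhe40 (0.67 ± 0.14, 0.0398) were higher in HBM at day 10, and Bhlhe40 also at day 21 (0.79 ± 0.14, 0.0417). On these days 1.31% and 0.241% of all genes were called with the block. The block with 1 batch term for all days called 0 genes on any day. Of the 20, 7 were above WT in all 9 later same-batch pairs, against 6.16% of all genes.

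Of 11 genes that supply the cofactors of the hydroxylases, 10 were tested. The metal transporter gene Slc39a14, the glucose and dehydroascorbate transporter gene Slc2a1 and the glutamate dehydrogenase gene Glud1 fell from day 0 to day 10 in both genotypes, Slc39a14 by log2 -1.04 ± 0.19 in WT (edgeR adjusted p = 0.000717) and -0.83 ± 0.18 in HBM (0.0033). Without a block 0 of the 10 rose. Of all genes, 14.1% fell and 12.2% rose in WT, and 12.4% fell and 14.1% rose in HBM. With the culture as a block Slc23a2 (log2 0.89 ± 0.27, edgeR adjusted p = 0.0181) and Idh2 (0.54 ± 0.20, 0.0458) rose in WT and Idh2 in HBM (0.78 ± 0.20, 0.00652), and the same 3 fell. With that block 18.8% of all genes fell and 19.7% rose in WT, and 17.7% fell and 20.5% rose in HBM. Between the genotypes the block called 1.31% of all genes at day 10. The iron transporter gene Slc11a2 was higher in HBM at day 10 with the block (log2 0.37 ± 0.08, edgeR adjusted p = 0.0451) and not without it (adjusted p of 1) or with 1 batch term for all days.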
